A study of Mus musculus with 168 samples.

Results

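A set of 8 genes that restrain the growth kinase mTOR when cells are stressed was followed through hypoxia and reoxygenation in 7 regions of the mouse brain. The genes were Ddit4, Ddit4l, Sesn1, Sesn2, Sesn3, Tsc1, Tsc2 and Deptor, and every probe set annotated to 1 of them and to no other gene was taken, which gave 22 of the 45037 probe sets tested and 8 of the 18193 genes with a probe set of their own. The tissue came from C57BL/6 male mice of 8 to 9 weeks, with no transgene or drug, and each region at each time point was measured on 3 Affymetrix Mouse Genome 430 2.0 arrays, 168 arrays in all. Mice breathed 8% oxygen and were killed directly after 1 h (H1) or 3 h (H3), or after 3 h of it followed by 1, 3, 6, 12 or 24 h in room air (R1, R3, R6, R12, R24). Sham controls (C) sat in the same chamber for 3 h with room air and then spent 24 h in the home cage. Brief hypoxia of this kind is used to precondition the brain, that is, to make it more resistant to a later injury. All sham controls therefore carry 1 history, and hypoxia, handling and the hour of killing cannot be told apart between them and the time points.

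mTOR complex 1 (mTORC1) is the kinase complex that drives protein synthesis and cell growth, and it is switched on at the lysosome by the small GTPase Rheb. Ddit4 encodes REDD1, a short-lived protein whose gene is known to be induced by hypoxia and by glucocorticoids and which holds mTORC1 back through the TSC1-TSC2 complex, the protein pair that turns Rheb off. Ddit4l encodes its paralogue REDD2, the sestrins (Sesn1 to Sesn3) are stress proteins that bind the GATOR2 complex in amino acid sensing, and Deptor binds mTOR itself in both of its complexes.

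The promoter letters of Ddit4 and Ddit4l are shown because these genes had the largest called rise and the largest called fall among the members. Both stretches are the 250 bases before the annotated gene start in RefSeq on mouse build GRCm38.p6, written 5′ to 3′ on the strand of the gene, with capitals for the hypoxia response core (ACGTG or GCGTG, searched on both strands). Ddit4 lies on the minus strand at chr10:59949675-59951770, and its window is chr10:59951771-59952020. Ddit4l lies on the plus strand at chr3:137623672-137628332, and its window is chr3:137623422-137623671.
Ddit4: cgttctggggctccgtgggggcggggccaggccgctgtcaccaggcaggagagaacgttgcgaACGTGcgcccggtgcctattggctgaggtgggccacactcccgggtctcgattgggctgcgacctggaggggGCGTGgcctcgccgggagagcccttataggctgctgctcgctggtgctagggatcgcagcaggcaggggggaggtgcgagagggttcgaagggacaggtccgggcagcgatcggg
Ddit4l: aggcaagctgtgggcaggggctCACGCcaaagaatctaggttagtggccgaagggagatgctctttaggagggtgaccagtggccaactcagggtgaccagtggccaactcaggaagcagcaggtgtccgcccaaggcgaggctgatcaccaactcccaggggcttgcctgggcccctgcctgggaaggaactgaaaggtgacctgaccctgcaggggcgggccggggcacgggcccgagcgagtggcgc
The Ddit4 window held 2 cores, ACGTG at 187 and GCGTG at 115 bases before the start, and the Ddit4l window held 1, read as CACGC on this strand, at 228 bases before it. Among 32851 promoter windows of the same length, 38.6% held at least 1 such core and 16.7% held 2 or more, so such letters are common. The Ddit4 window also held 2 CCAAT boxes, found in 33.8% of windows. Neither these 2 windows nor those of Sesn1, Sesn2, Sesn3, Tsc1 and Tsc2 held the E-box CACGTG (6.02% of windows), the glucocorticoid receptor core AGAACA (16.1%) or the forkhead motif GTAAACA (3.17%). These are matches of letters, and binding was not measured.

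Values are array intensities on a linear scale, called scanner units here, and changes are differences of log2(intensity + 16). That added 16 makes the changes of dim probe sets smaller than they would be on a plain log2 scale. Within a group of 3 arrays the mean correlation over all probe sets was between 0.973 and 0.984. In sham controls each region's own marker genes summed highest in that region, with the lowest own array above the highest array of any other region in 7 of 7 regions. Summed neuronal markers (5 of 5 measured) at H3 were between 0.99 and 1.07 times their sham level over the regions. Choroid plexus markers (5 of 5 measured) varied widely, between 0.41 times (cortex) and 3.38 times (thalamus) their sham mean at H3. Tests are those of limma with Benjamini-Hochberg adjustment over all 45037 probe sets, a change is called at an adjusted p under 0.05, and it is compared with the share of all probe sets called in the same way. Errors of levels are SD over 3 arrays, and errors of changes are SE from the fit. The number of arrays, 3 a group, limits the precision.

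Ddit4 rose in all 7 regions during hypoxia, was highest at H3, and no longer differed from sham controls by the test at R3. Over the 21 arrays of a time point, the lowest, median and highest Ddit4 intensity (probe set 1428306_at) were 217, 418 and 554 in sham controls, 459, 766 and 1069 at H1, 791, 1128 and 1524 at H3, 546, 703 and 962 at R1, 215, 356 and 521 at R3, 389.7, 631 and 827 at R6, 243, 375 and 434 at R12 and 196, 359.8 and 450.2 at R24. The dimmest H3 array was brighter than the brightest sham array of any region. Ddit4 was an abundant signal, brighter on average than 93.3% of all probe sets.

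In the cortex, Ddit4 was 791, 1029 and 899 at H3, against 217, 312 and 284 in sham controls, a log2 change of 1.69 ± 0.16 (SE) with an adjusted p of 5.19e-05 (limma). Striatal Ddit4 was 1128, 1084 and 1092 at H3, against 336, 338 and 385 in sham controls, a log2 change of 1.60 ± 0.15 (SE) with an adjusted p of 2.14e-05 (limma). No H3 array overlapped a sham array in either region, and the cortex, lowest in sham controls, had the largest change, 3.23-fold. In the midbrain, Ddit4 was 1281, 1447 and 1491 at H3, against 374, 418 and 546 in sham controls, a log2 change of 1.64 ± 0.15 (SE) with an adjusted p of 1.58e-05 (limma). In the pons and medulla, Ddit4 was 1215, 1524 and 1357 at H3, against 422, 389 and 554 in sham controls, a log2 change of 1.56 ± 0.14 (SE) with an adjusted p of 5.3e-05 (limma). Both regions again had 3 of 3 arrays above every sham array, and the highest Ddit4 value of all arrays, 1524, was in the pons and medulla. Thalamic Ddit4 was 1085, 1384 and 1202 at H3, against 383, 426 and 463 in sham controls, a log2 change of 1.49 ± 0.14 (SE) with an adjusted p of 4.81e-05 (limma). Cerebellar Ddit4 was 1239, 1107 and 1120.3 at H3, against 433, 359 and 440.2 in sham controls, a log2 change of 1.46 ± 0.12 (SE) with an adjusted p of 3.34e-06 (limma). Hippocampal Ddit4 was 1084, 1241 and 1113 at H3, against 445, 449 and 527 in sham controls, a log2 change of 1.25 ± 0.14 (SE) with an adjusted p of 0.00025 (limma). The hippocampus had the smallest change, 2.38-fold, and still no overlap. Over the 7 regions pooled, 5.46% of all probe set and region pairs had every H3 array above every sham array.

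Ddit4 was thus called higher at H3 in 7 of 7 regions, where 0.157% of all probe set and region pairs were called higher. All 7 calls remained when any 1 of the 24 arrays of a region was left out. The size of the rise, between 1.25 and 1.69 on the log2 scale, was not shown to differ between regions (F-test of the region by time difference, adjusted p = 1.00, limma), a test that called 0.0222% of all probe sets. Summed choroid plexus markers in the thalamus lay between 472 and 4955 at H3, against 516 and 727 in sham controls. In the cortex they lay between 308 and 1244 at H3, against 544 and 3102 in sham controls. The markers' part in the sizes was not tested. In this bulk tissue, fewer cells of a type and less RNA per cell cannot be told apart.

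**Figure D1:**
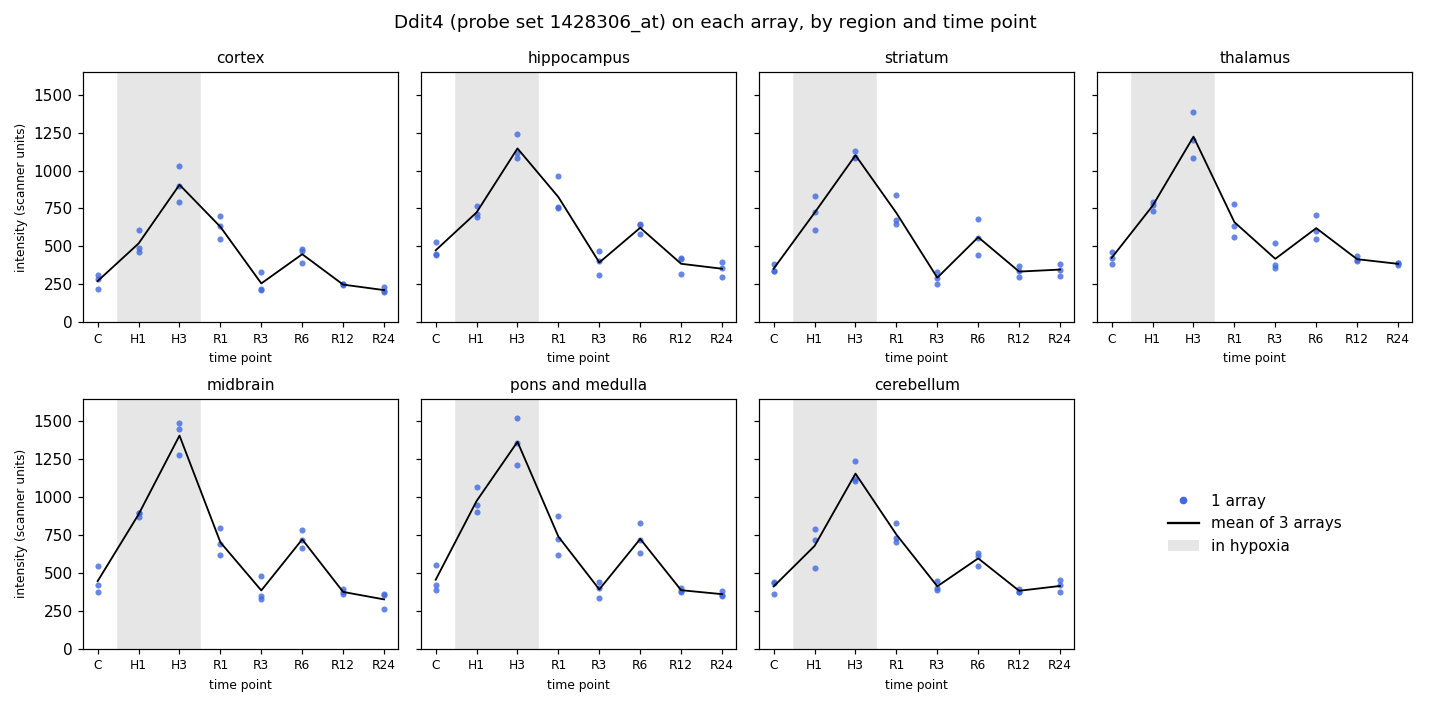
Intensity of Ddit4 in scanner units (vertical axis, linear) at each time point (horizontal axis) in the 7 regions, with a point for each array and a line through the means of 3 arrays. The grey band marks the time in hypoxia. In each region the mean is highest at H3, and the R6 arrays stand above all sham arrays of their region.

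The rise was under way after 1 h. In the pons and medulla, Ddit4 was 1069, 951 and 903 at H1, against 422, 389 and 554 in sham controls, a log2 change of 1.09 ± 0.14 (SE) with an adjusted p of 0.00204 (limma). Midbrain Ddit4 was 894, 867 and 899 at H1, against 374, 418 and 546 in sham controls, a log2 change of 0.98 ± 0.15 (SE) with an adjusted p of 0.0142 (limma). In the striatum, Ddit4 was 729, 606 and 829 at H1, against 336, 338 and 385 in sham controls, a log2 change of 0.99 ± 0.15 (SE) with an adjusted p of 0.0107 (limma). These 3 regions had no overlap with sham controls. In the thalamus, Ddit4 was 795, 736 and 772 at H1, against 383, 426 and 463 in sham controls, a log2 change of 0.84 ± 0.14 (SE) with an adjusted p of 0.0232 (limma). The other regions also had all H1 arrays above all sham arrays, so that the groups did not overlap in 7 of 7 regions, against 4.98% of all probe set and region pairs. Their changes did not pass the test, with 0.90 in the cortex (adjusted p = 0.0763, limma), 0.69 in the cerebellum (adjusted p = 0.0648) and 0.60 in the hippocampus (adjusted p = 0.459). Ddit4 was therefore called in 4 of 7 regions at H1, where 0.0276% of all pairs were called higher. The call in the pons and medulla held without any 1 array. The midbrain and thalamus calls were lost without sham replicate 1 or 2 or without any H1 replicate (highest adjusted p 0.0957 and 0.183, both without sham replicate 1), and the striatal call was lost without sham replicate 1 or 2 or H1 replicate 1 or 3 (highest 0.126, without H1 replicate 3).

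After 1 h of room air Ddit4 was between its H3 and sham levels. Cortical Ddit4 was 546, 703 and 637 at R1, against 217, 312 and 284 in sham controls, a log2 change of 1.18 ± 0.16 (SE) with an adjusted p of 0.00402 (limma). In the striatum, Ddit4 was 674, 838 and 649 at R1, against 336, 338 and 385 in sham controls, a log2 change of 0.99 ± 0.15 (SE) with an adjusted p of 0.00498 (limma). In the cerebellum, Ddit4 was 702, 829 and 729.9 at R1, against 433, 359 and 440.2 in sham controls, a log2 change of 0.85 ± 0.12 (SE) with an adjusted p of 0.00137 (limma). Every R1 array in these regions exceeded every sham array, as in the other 4 (5.98% of all pairs had that pattern). In the hippocampus, Ddit4 was 754, 962 and 759 at R1, against 445, 449 and 527 in sham controls, a log2 change of 0.78 ± 0.14 (SE) with an adjusted p of 0.0212 (limma). The thalamus (0.61, adjusted p = 0.0547, limma), the midbrain (0.65, adjusted p = 0.0941) and the pons and medulla (0.68, adjusted p = 0.0786) did not pass, which left 4 of 7 regions called higher against 0.158% of all pairs. The hippocampal call was lost without sham replicate 1 or 2 or R1 replicate 2 or 3 (highest adjusted p 0.118, without sham replicate 2). The R1 changes differed between regions at an unadjusted p of 0.0416, which did not survive adjustment (adjusted p = 0.724, limma), with 0.135% of all probe sets called.

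Ddit4 fell during reoxygenation. R1 minus H3 was -0.99 in the midbrain (adjusted p = 0.0136), and the change was -0.88 in the thalamus (adjusted p = 0.0171), -0.88 in the pons and medulla (adjusted p = 0.0333) and -0.61 in the cerebellum (adjusted p = 0.0241, limma throughout). These 4 of 7 regions were called lower, against 0.0555% of all pairs. Between R1 and R3 Ddit4 was called lower in 7 of 7 regions (0.117% of all pairs), by log2 changes of -0.65 (thalamus) to -1.27 (cortex). At R3 the intensities were 215, 218 and 334 in the cortex and 345, 330.0 and 478 in the midbrain. The R3 arrays overlapped the sham arrays in 6 of 7 regions and lay below them in the striatum, where the change was -0.26 and did not pass (adjusted p = 0.811).

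A smaller elevation followed at R6. Ddit4 at R6 was 469, 389.7 and 486 in the cortex, against 217, 312 and 284 in sham controls (0.70 on the log2 scale). In the striatum it was 557, 443 and 681 at R6, against 336, 338 and 385 in sham controls (0.63). In the midbrain it was 780.5, 665 and 719 at R6, against 374, 418 and 546 in sham controls (0.69). All 3 R6 arrays lay above all 3 sham arrays in these regions and in the other 4, whereas 4.53% of all pairs had that pattern. In single regions no change at R6 was called for Ddit4 (adjusted p between 0.326 and 1.00, limma), and no pair of any probe set was called higher at R6 (0%). All 7 regions had an unadjusted p under 0.05. The share of all pairs under that threshold is not given here, so this count is not read as support for the elevation. Ddit4 at R12 was 359, 392 and 373 in the midbrain, where R12 minus R6 was -0.91 ± 0.15 (SE) with an adjusted p of 0.0388 (limma), the 1 region called lower (0.00793% of all pairs). That contrast was added after the data had been seen, so its p is not separate support for the elevation at R6.

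Averaging the 7 regions by time point and replicate number gave 3 values a time point and an estimate of what the regions shared. The mean Ddit4 change was 0.87 ± 0.10 (SE) at H1 (adjusted p = 0.000241, limma), 1.53 ± 0.10 (SE) at H3 (adjusted p = 4.42e-08), 0.82 ± 0.10 (SE) at R1 (adjusted p = 6.62e-05) and 0.59 ± 0.10 (SE) at R6 (adjusted p = 0.0413). These were the 4 time points called for it, and the shares of all probe sets called higher at those times were 0.0977% (H1), 1.2% (H3), 1.65% (R1) and 0.0266% (R6). At R3 the mean change was -0.15 ± 0.10 (SE) (adjusted p = 0.641), at R12 it was -0.15 ± 0.10 (SE) (adjusted p = 0.734) and at R24 it was -0.23 ± 0.10 (SE) (adjusted p = 0.868), none of them called. The R6 call was lost in 18 of 24 omissions of 1 replicate number at 1 time point (highest adjusted p 0.265, without R6 replicate 3), while the change itself stayed between 0.52 and 0.67.

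Neighbouring time points of Ddit4 differed at 5 steps in the mean over regions. H3 minus H1 was 0.66 ± 0.10 (SE) with an adjusted p of 0.00241 (limma, 0.235% of probe sets called higher). R1 minus H3 was -0.71 ± 0.10 (SE) with an adjusted p of 0.000691 (1.09% called lower), and R3 minus R1 was -0.97 ± 0.10 (SE) with an adjusted p of 1.14e-05 (0.95% called lower). The signal then turned upward again: R6 minus R3 was 0.74 ± 0.10 (SE) with an adjusted p of 0.00247 (0.34% called higher), and R12 minus R6 was -0.74 ± 0.10 (SE) with an adjusted p of 0.00207 (0.22% called lower). These last 2 contrasts were added after the data had been seen. All 5 calls held in 24 of 24 omissions of 1 replicate number at 1 time point, with adjusted p of at most 0.0283.

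**Figure D2:**
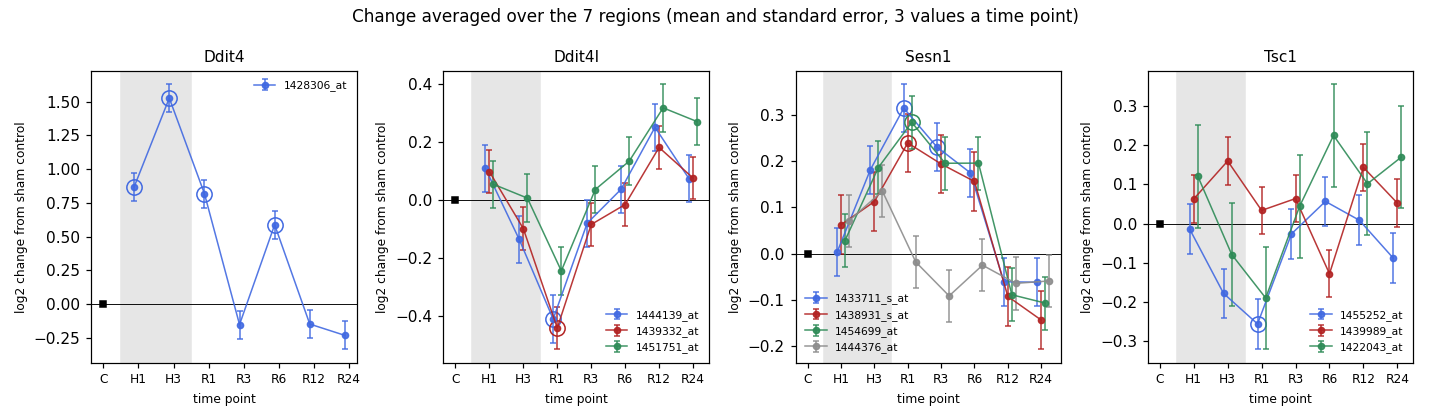
Change from sham control on the log2 scale (vertical axis) averaged over the 7 regions at each time point (horizontal axis), for every probe set of Ddit4, Ddit4l, Sesn1 and Tsc1, with standard errors and the sham controls at 0. Open rings mark an adjusted p under 0.05. Ddit4 peaks at 1.53 at H3 with a second elevation of 0.59 at R6, while at R1 Ddit4l and the brightest Tsc1 probe set dip and 3 of the 4 Sesn1 probe sets rise.

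Ddit4l, the paralogue of Ddit4, went the other way at R1. It fell at R1 in the forebrain regions where it is most abundant and had no called change at H1 or H3. In the cortex, Ddit4l (probe set 1444139_at) was 335, 308 and 309.7 at R1, against 555, 505 and 491 in sham controls, a log2 change of -0.68 ± 0.11 (SE) with an adjusted p of 0.00855 (limma). Striatal Ddit4l was 194, 196 and 177 at R1, against 389, 411 and 293 in sham controls, a log2 change of -0.88 ± 0.17 (SE) with an adjusted p of 0.0195 (limma). The cortical R1 arrays reached no more than 335 and the striatal ones no more than 196, below every sham array of the same region. In the hippocampus, Ddit4l was 158, 175 and 153 at R1, against 209, 269 and 233 in sham controls, a log2 change of -0.50 ± 0.12 (SE) with an adjusted p of 0.0913 (limma). That hippocampal change missed the threshold, and its groups did not overlap either. Over the 7 regions pooled, 8.41% of all probe set and region pairs had every R1 array below every sham array. Summed choroid plexus markers lay between 377 and 991 at R1, against 544 and 3102 in sham controls, in the cortex and between 363 and 638 at R1, against 458 and 1213 in sham controls, in the striatum, and their part in the result was not tested.

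A second probe set, 1439332_at, was called in the striatum and the hippocampus. In the striatum it was 75.9, 82.9 and 71.5 at R1, against 179.7, 142 and 139.9 in sham controls, a log2 change of -0.87 ± 0.15 (SE) with an adjusted p of 0.01 (limma). In the hippocampus it was 58.4, 61.9 and 58.5 at R1, against 102, 116 and 92.8 in sham controls, a log2 change of -0.66 ± 0.13 (SE) with an adjusted p of 0.0365 (limma). In both regions each R1 array was dimmer than each sham array, a pattern that 8.41% of all pairs had. In the cortex the change of this probe set was -0.73 ± 0.18 (SE) and did not pass (adjusted p = 0.111, limma), and the third probe set, 1451751_at, was called in no region, with -0.72 as its lowest value, in the hippocampus. The 4 calls of Ddit4l were the only lower calls at R1 among the 147 probe set and region pairs of the 7 members other than Ddit4, where 0.25% of all pairs were called lower.

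Single arrays decided some of these calls. The cortical call of 1444139_at was lost without sham replicate 1 (adjusted p = 0.0509), and its striatal call was lost without sham replicate 1 or 2 or any R1 replicate (highest adjusted p 0.127, without sham replicate 2, limma). The striatal call of 1439332_at was lost without sham replicate 1 or R1 replicate 3 (highest 0.0554), and its hippocampal call was lost in 7 of 24 omissions, those of any sham or R1 replicate and of R6 replicate 3 (highest 0.205, without sham replicate 2), and also with the replicate number as a block (adjusted p = 0.0517).

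Averaged over the 7 regions, Ddit4l at R1 changed by -0.41 ± 0.08 (SE) (adjusted p = 0.00415, limma) on 1444139_at and by -0.44 ± 0.07 (SE) (adjusted p = 0.000925) on 1439332_at, both called, and by -0.25 ± 0.08 (SE) on 1451751_at, which did not pass (adjusted p = 0.0921). Of all probe sets, 3.83% were called lower at R1. Both calls held in 24 of 24 omissions of 1 replicate number at 1 time point. By R3 the level was higher again than at R1, by 0.33 ± 0.08 (SE) (adjusted p = 0.022) and 0.36 ± 0.07 (SE) (adjusted p = 0.00606) on those probe sets, where 3.38% of all were called higher, although the first of these 2 steps was lost without R1 replicate 1 or 3 or R3 replicate 1 or 2 (highest adjusted p 0.156) and the second without R3 replicate 1 (0.0554). In single regions R3 minus R1 was called for 1444139_at in the cortex (0.52, adjusted p = 0.0452) and for 1439332_at in the striatum (0.71, adjusted p = 0.0332), against 0.296% of all pairs.

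The R1 change of Ddit4l ran between -0.88 in the striatum and 0.05 in the cerebellum on 1444139_at. On 1439332_at it ran between -0.87 in the striatum and -0.14 in the pons and medulla, and on 1451751_at between -0.72 in the hippocampus and 0.16 in the midbrain, so the regions at the ends differed between probe sets. The test of the difference between regions gave unadjusted p of 0.000639, 0.000616 and 0.0057 for 1444139_at, 1439332_at and 1451751_at, and adjusted p of 0.192, 0.187 and 0.43 (limma), so the regional pattern of the fall did not pass. No member differed between regions at any time point after adjustment.

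**Figure D3:**
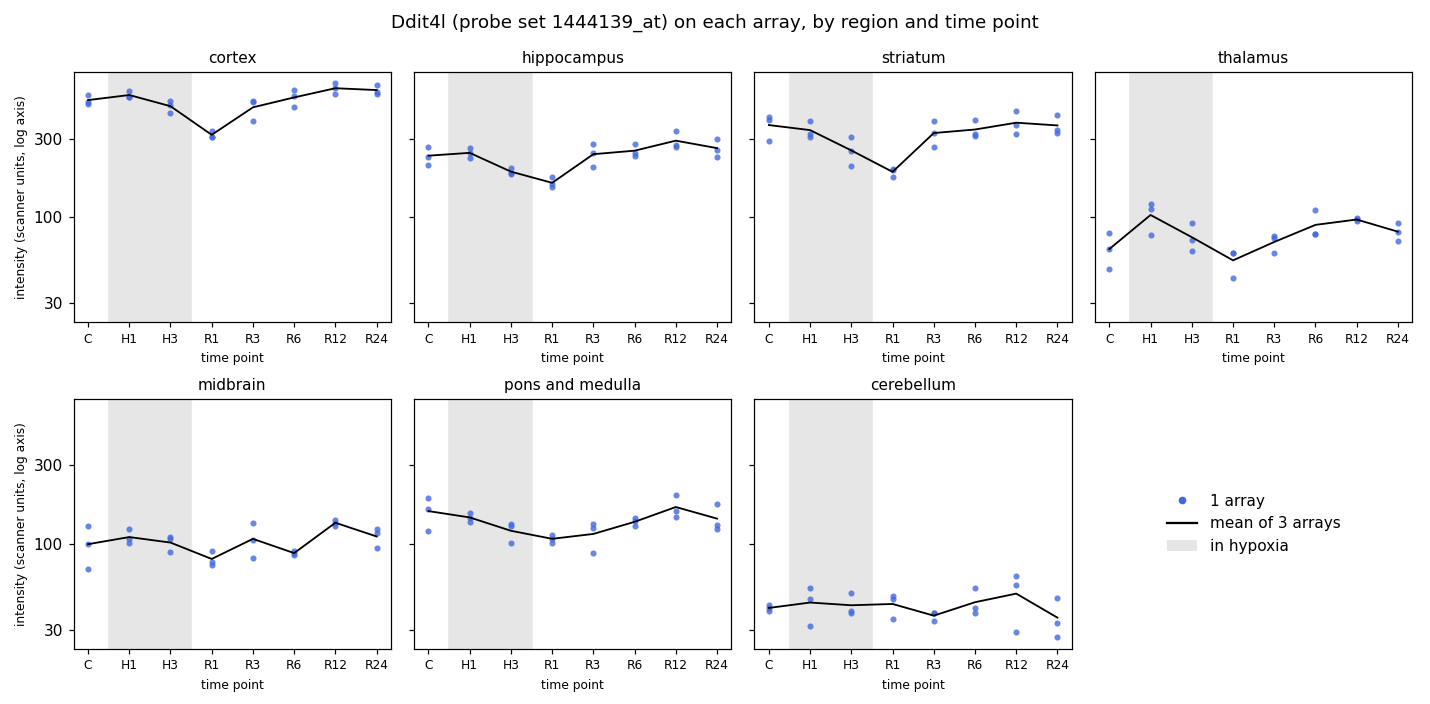
Intensity of Ddit4l (probe set 1444139_at) in scanner units on a log axis (vertical) at each time point (horizontal) in the 7 regions, with a point for each array and a line through the means of 3 arrays. The grey band marks the time in hypoxia. The R1 arrays of the cortex and striatum lie below every sham array of their region, and the cerebellum is dim throughout.

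Sesn1, a sestrin known as a p53 target, rose modestly at R1. In the thalamus, probe set 1454699_at was 232, 247 and 252 at R1, against 161, 163 and 185 in sham controls, a log2 change of 0.49 ± 0.10 (SE) with an adjusted p of 0.03 (limma). The groups did not overlap, where 5.98% of all pairs had every R1 array above every sham array. This was the 1 higher call at R1 among the 147 pairs, where 0.158% of all pairs were called higher. It was lost without sham replicate 1 or 2 or R1 replicate 2 or 3 (highest adjusted p 0.162, without sham replicate 2). Summed choroid plexus markers in the thalamus lay between 686 and 6240.2 at R1, against 516 and 727 in sham controls, and their part was not tested. The brightest probe set, 1433711_s_at, had positive changes in 7 of 7 regions, from 0.09 in the cerebellum to 0.55 in the pons and medulla. In the pons and medulla it was 392, 379 and 385 at R1, against 240.4, 248 and 287 in sham controls, with an adjusted p of 0.127, and no single region passed.

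In the mean over regions 3 of the 4 Sesn1 probe sets were called higher at R1, with 0.31 ± 0.05 (SE) for 1433711_s_at (adjusted p = 0.000821, limma), 0.28 ± 0.06 (SE) for 1454699_at (adjusted p = 0.0047) and 0.24 ± 0.06 (SE) for 1438931_s_at (adjusted p = 0.0303), where 1.65% of all probe sets were called. The suffix _s_at marks probes that can match transcripts of more than 1 gene, and 1454699_at carries no such suffix. However, 1433711_s_at and 1454699_at are annotated to the same source sequence, so their calls are not separate evidence. The fourth, 1444376_at, was dim, with a mean intensity of 30.2, and changed by -0.02 ± 0.06 (SE). The calls of 1433711_s_at and 1454699_at held in 24 of 24 omissions, and that of 1438931_s_at was lost without sham replicate 2 or 3 or any R1 replicate (highest adjusted p 0.168, without sham replicate 2). At R3, 1433711_s_at had a mean change of 0.23 ± 0.05 (SE) (adjusted p = 0.0409, 0.355% of all probe sets called higher), a call lost in 12 of 24 omissions (highest 0.213, without R3 replicate 3). At H3 its mean change was 0.18 ± 0.05 (SE) (adjusted p = 0.0627).

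Tsc1 encodes hamartin, the partner that stabilises tuberin, the product of Tsc2 and the catalytic part of the brake on Rheb. On its brightest probe set, 1455252_at, Tsc1 was lower at R1 than in sham controls in 7 of 7 region means. Striatal Tsc1 was 174, 187 and 169 at R1, against 239, 225 and 223 in sham controls, a log2 change of -0.35 ± 0.11 (SE) that did not pass (adjusted p = 0.209, limma). In the hippocampus it was 142, 119 and 135 at R1, against 185, 173 and 167 in sham controls (-0.37 ± 0.10 (SE), adjusted p = 0.122). No region was called, and the groups failed to overlap in 2 of 7 regions, where 8.41% of all pairs were apart in that direction. The mean over regions fell by 0.26 ± 0.06 (SE) on the log2 scale and was called (adjusted p = 0.0194, limma, 3.83% of all probe sets called lower). That call was lost without sham replicate 1 or 2 or R1 replicate 2 or 3 (highest 0.115, without sham replicate 2). R3 was higher than R1 by 0.23 ± 0.06 (SE) (adjusted p = 0.0424, limma, 3.38% called higher), and that call was lost in 13 of 24 omissions (highest 0.230, without R3 replicate 1). The other 2 Tsc1 probe sets were dim, with mean intensities of 28.0 and 24.2, and were called at no time point. Their mean changes at R1 were 0.03 ± 0.06 (SE) for 1439989_at and -0.19 ± 0.13 (SE) for 1422043_at. At H3 they were 0.16 and -0.08, against -0.18 on 1455252_at. The F-test over the time course in the mean over regions passed for 1455252_at (adjusted p = 0.0166, limma) and for 1439989_at (0.0425), which went in different directions.

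Tsc2, Sesn2, Sesn3 and Deptor had no called change at any time point, in any region or in the mean over regions. Tsc2 (1452105_a_at) at H3 was 326, 331 and 342 in the cortex, against 309, 279 and 381 in sham controls, and its mean changes over the 7 time points lay between -0.05 and 0.04 on the log2 scale. Sesn2, the sestrin known as a leucine sensor, was dim on both probe sets (mean intensities of 34.9 and 28.8, with 10.7% and 13.7% of arrays under 16), so that a change could be seen only poorly. Its cortical level on 1451599_at was 59.2, 48.1 and 45.3 at H3, against 16.5, 25.6 and 49.98 in sham controls, with overlapping groups. The 2 Sesn3 probe sets differed in spread within groups: 1453313_at had a median SD of 0.43 on the log2 scale, with striatal sham arrays at 643, 1542 and 1714. In the thalamus its replicate 1 was the lowest array at every time point, with 371 against 738 and 875 in sham controls. In the thalamus part of the spread thus followed the replicate number, for which the fit had no term. That order was not general, as replicate 1 was the highest cortical sham array, at 1227 against 1048 and 630. By contrast, 1449303_at had a median SD of 0.09 and mean changes between -0.08 and 0.01. Deptor was read by 6 probe sets, of which 1428622_at was the tightest, with mean changes between -0.09 and -0.01. The largest Deptor change, on 1453571_at in the cerebellum, was 155, 137 and 89.9 at R1, against 72.3, 86.9 and 41.0 in sham controls (0.81 ± 0.35 (SE), adjusted p = 0.361, limma). Those groups did not overlap (5.98% of all pairs had every R1 array above every sham array), but the other 5 Deptor probe sets read between -0.17 and -0.04 there. A p that misses the threshold does not show that a level stayed the same.

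Counted over the 147 pairs of probe set and region of the 7 members other than Ddit4, 0 were called at H1, 0 at H3, 1 higher and 4 lower at R1 and 0 at R3 to R24. The matching shares of all pairs called in either direction were 0.0301% at H1, 0.311% at H3, 0.408% at R1 and 0.00238% at R3 to R24. At an unadjusted p under 0.05 in limma the counts were 1 at H1, 19 at H3, 35 at R1, 16 at R3, 11 at R6, 14 at R12 and 9 at R24. The share of all pairs under that unadjusted threshold is not given here, so these counts are not read as a response of the members. The F-test over the time course was called in 7 of 7 regions for Ddit4, in 6 pairs for Ddit4l and in 2 for Sesn1, against 0.96% of all pairs.

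**Figure D4:**
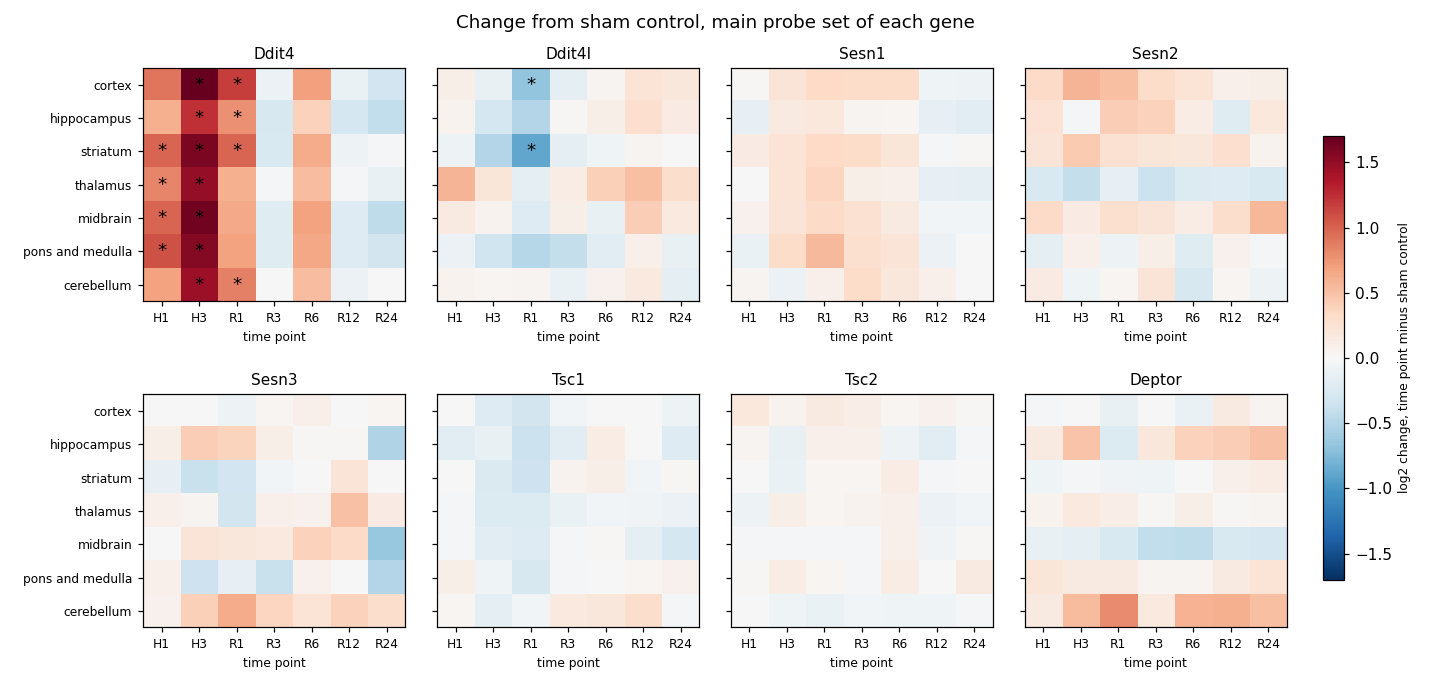
Change from sham control on the log2 scale (colour, red higher and blue lower) for the main probe set of each of the 8 genes, with regions down the page and time points across. Asterisks mark an adjusted p under 0.05. Ddit4 is red in every region at H1, H3, R1 and R6, Ddit4l carries asterisks at R1 in the cortex and striatum, and the other 6 genes carry none.

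The sham controls show where each brake is expressed at rest. Levels differed between regions for 14 of 22 member probe sets, against 41.4% of all probe sets, and over pairs of regions 17.1% were called in all. Ddit4 spanned a ratio of 1.75, in the order hippocampus (474 ± 46.0, SD, n = 3), pons and medulla (455 ± 87.6), midbrain (446 ± 89.5), thalamus (424 ± 39.9), cerebellum (411 ± 44.8), striatum (353 ± 27.8) and cortex (271 ± 48.8). No 2 neighbours in that order passed the test, and the arrays of neighbours overlapped except those of the striatum and the cortex, whose difference was 0.37 ± 0.15 (SE, adjusted p = 0.129, limma). Among all pairs 5 of 21 were called, and the hippocampus exceeded the cortex by 0.78 ± 0.15 (SE) on the log2 scale (adjusted p = 0.00258, limma).

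Ddit4l had the steepest regional gradient of the members. Its levels on 1444139_at were 517 ± 33.8 in the cortex, 364 ± 62.6 in the striatum, 237 ± 30.04 in the hippocampus, 158 ± 36.2 in the pons and medulla, 99.4 ± 29.2 in the midbrain, 63.95 ± 15.9 in the thalamus and 40.6 ± 1.77 in the cerebellum (SD, n = 3 each), a ratio of 12.7 between the ends. All 3 Ddit4l probe sets gave this order, and 17 of 21 pairs of regions were called on 1444139_at. The neighbours that passed were the striatum over the hippocampus (adjusted p = 0.0493, limma) and the hippocampus over the pons and medulla (adjusted p = 0.0397), while the other neighbours did not pass on this probe set. Of these, the cortex over the striatum (0.50 ± 0.18, SE, adjusted p = 0.0919) and the thalamus over the cerebellum (0.48 ± 0.18, SE, adjusted p = 0.0677) had arrays that did not overlap, and both steps passed on 1439332_at (adjusted p = 0.00281 and 0.0108). The arrays of the pons and medulla, the midbrain and the thalamus overlapped from 1 neighbour to the next.

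Sesn1 (1433711_s_at) was highest in the cerebellum at 613 ± 15.6 (SD, n = 3), above the hippocampus at 389 ± 12.1 (adjusted p = 0.000131, limma). It was lowest in the pons and medulla at 258 ± 24.8, with 11 of 21 pairs called and no other neighbours passing the test. The cerebellar step over the hippocampus also passed on 1454699_at (adjusted p = 1.33e-05) and on the dim 1444376_at (0.0405). On 1438931_s_at the cerebellum was highest too, but its step over the cortex did not pass (adjusted p = 0.0557, limma), with 5 of 21 pairs called. Sesn3 (1449303_at) was highest in the striatum at 908 ± 53.1, above the cortex at 526 ± 61.3 (adjusted p = 1.51e-05), while the other regions lay between 390.3 in the hippocampus and 513 in the thalamus. On the brightest Sesn3 probe set, 1453313_at, the striatum was also highest, but its step over the cortex did not pass (adjusted p = 0.736, limma). Deptor (1428622_at) was highest in the thalamus at 225 ± 6.03 and lowest in the cerebellum at 82.0 ± 12.3, with 13 of 21 pairs called. The thalamus was not called above the pons and medulla (adjusted p = 0.108, limma), nor the cerebellum below the hippocampus (adjusted p = 0.0606). On the brightest Deptor probe set, 1453571_at, the thalamus was called above the hippocampus and the cerebellum only. Its adjusted p there was 0.887 against the midbrain, 0.693 against the pons and medulla, 0.673 against the cortex and 0.481 against the striatum (limma). The 2 TSC subunits varied less, with Tsc1 (1455252_at) between 229 ± 8.72 in the striatum and 155 ± 23.5 in the cerebellum (3 of 21 pairs called) and Tsc2 between 381 ± 26.0 in the hippocampus and 294 ± 37.0 in the pons and medulla (2 of 21 pairs). Sesn2 (1451599_at) was dim everywhere, between 14.6 ± 14.0 in the striatum and 48.9 ± 4.98 in the thalamus.

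**Figure D5:**
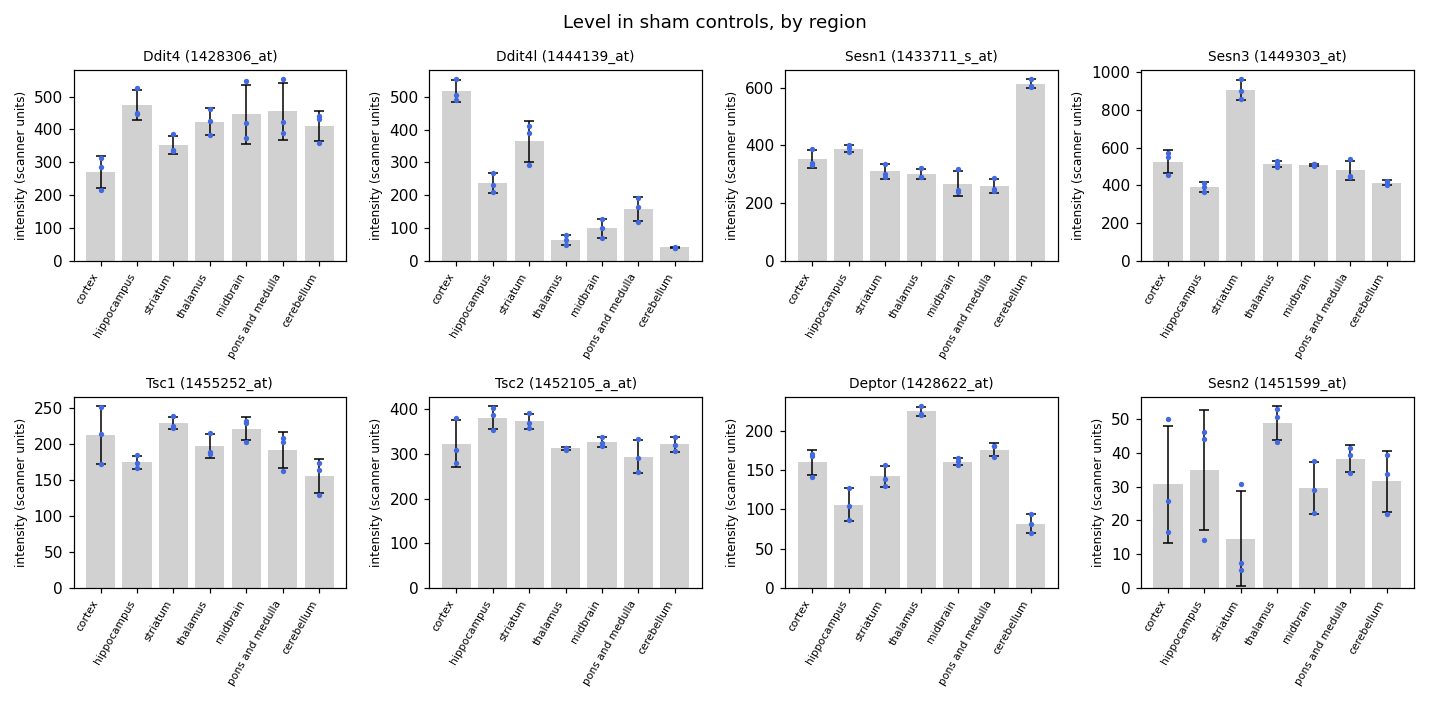
Intensity in scanner units (vertical axis, linear, starting at 0) in sham controls of the 7 regions (horizontal axis) for 1 probe set of each of the 8 genes. Bars are means with SD, and points are the 3 arrays. The panels of Sesn3 and Deptor show the probe set with the least spread within groups, and the others the brightest. Ddit4l falls from cortex to cerebellum by a ratio of 12.7, and Sesn1 stands out in the cerebellum and Sesn3 in the striatum. Deptor is highest in the thalamus, with no called difference from the pons and medulla, and lowest in the cerebellum, with none from the hippocampus. Levels are comparable within a panel only.

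Other genes of the pathway were called at H3 and R1 in both directions, with a median change near 0. Of 81 genes in 9 lists (complexes upstream and downstream of mTOR and known inducers of the members), 75 had a probe set, and in the mean over regions 0 were called at H1, 1 higher and 2 lower at H3, 3 higher and 6 lower at R1 and 0 at R3. The shares of all probe sets called at H3 were 1.2% higher and 2.16% lower, and at R1 1.65% higher and 3.83% lower, and the median R1 change of the 75 genes was 0.01, against -0.02 for all probe sets. The lists of mTORC1 (4 genes), TSC and Rheb (3), Rag GTPases and Ragulator (11 of 12 measured) and AMPK and LKB1 (10) held no call. Irs1, the docking protein of insulin signalling and the 1 called gene of 10 in the PI3K and AKT list, changed by -0.39 ± 0.05 (SE, adjusted p = 0.00016) at H3 and -0.45 ± 0.05 (SE, adjusted p = 3.24e-05) at R1 (limma). Rictor, the scaffold of mTORC2, changed by -0.19 ± 0.03 (SE, adjusted p = 0.00201) at H3 and -0.21 ± 0.03 (SE, adjusted p = 0.000839) at R1, and Prr5l, an mTORC2-associated protein, by -0.25 ± 0.05 (SE, adjusted p = 0.00681) at R1. Among the amino acid sensors, Slc38a9 changed by -0.29 ± 0.05 (SE, adjusted p = 0.00231) and Castor2 by -0.27 ± 0.05 (SE, adjusted p = 0.00547) at R1, the 2 called of 13 in the GATOR and KICSTOR list. Lpin1, a phosphatidate phosphatase controlled by mTORC1 and the 1 called of 11 targets, changed by 0.22 ± 0.04 (SE, adjusted p = 0.0046) at R1. Of 9 inducers measured, the stress transcription factor Cebpb changed by 0.34 ± 0.08 (SE, adjusted p = 0.0183) at H3 and 0.50 ± 0.08 (SE, adjusted p = 0.00065) at R1, Ddit3 by 0.25 ± 0.07 (SE, adjusted p = 0.0286) at R1, and Arnt, the partner of the hypoxia-inducible factors, by -0.28 ± 0.07 (SE, adjusted p = 0.0167) at R1. Nearest to the threshold without passing at R1 were, in their lists, Mlst8 (0.33), Mapkap1 (0.622), Rhebl1 (0.128), Lamtor5 (0.0645), Depdc5 (0.22), Prkab1 (0.0552), Insr (0.13), Eif4ebp2 (0.0855) and Nr3c1 (0.12), each figure being the adjusted p.

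The genes whose pattern was most like that of Ddit4 were sought among 10164 genes over the 49 changes from sham control (7 regions by 7 time points, which share the control arrays of each region). They were Arrdc3, an alpha-arrestin (Pearson r = 0.90), Nfkbia, the inhibitor of NF-kappa-B (0.90), Sgk1, a kinase known to be induced by glucocorticoids (0.88), Txnip, the thioredoxin-interacting protein (0.86), and F3, tissue factor (0.83). These values describe shape only and carry no test.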

How the data were processed

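RNA of 7 brain regions was hybridised to 168 arrays, 24 a region. The authors deposited 1 table with a linear intensity for each of 45101 probe sets on each array, and the processing notes name GCOS 1.3. Its values reach down to 0.0117, and a mean trimmed of 2% at each end lies between 124.6 and 124.7 on every array, with array medians between 39.6 and 51.8 and between 23.3% and 30.2% of values under 16. The methods describe GCRMA values divided by the sham mean, which this table does not show, and how it was made is not given in the sources used here. Intensities were used as deposited, as log2(intensity + 16). After 64 control probe sets were left out, 45037 were tested, of which 34945 name 1 gene, 932 several and 9160 none.

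Each region had a fit of its own (limma, version 3.58.1, R 4.3.3 and data.table, version 1.17.8) with 8 group means and no covariate, two-sided tests, Benjamini-Hochberg adjustment over all 45037 probe sets and a threshold of 0.05. The mean over regions averaged the 7 log2 values of a time point and replicate number. The methods describe 24 mice with 7 regions each, and the labels do not say that a replicate number is 1 mouse. Differences between regions were tested by an F-test in which the 7 arrays of 1 time point and number formed a random block, and sham regions with the replicate number as a random block.

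Named genes are the 8 members with all their probe sets (the brightest is the main one), the 5 genes most like Ddit4 among those with a mean intensity of at least 64, and, per pathway list, up to 4 called genes and 1 that was not. Members and lists were chosen with earlier results of these data known. Promoter windows and gene positions are from RefSeq on GRCm38.p6. Scripts were tested on simulated data. Alternatives were pseudocounts, centring, quantile normalization, a brightness filter, other limma settings, the methods' t-test, the replicate block, main probe sets only and omission of arrays.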

Additional observations from a re-analysis of the deposited data

How the results depend on the processing

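The called changes of Ddit4, Ddit4l, Sesn1 and Tsc1 from sham control, in single regions and in the mean over regions, kept their direction under every alternative run. Of the steps between neighbouring time points, those in the mean over regions were rerun with arrays left out and those in single regions only as the count of regions with Ddit4 lower at R1 than at H3, and the changes of pathway genes were not rerun. Ddit4 was called higher at H3 in 7 regions under each one that kept all arrays. Ddit4 at R1, called in 4 regions, was called in 7 with probe sets brighter than the median, in 7 with a trended and robust prior and in 7 by the methods' t-test without adjustment (4 after Benjamini-Hochberg). At H1 that t-test gave 7 without adjustment and 3 after it. For the other members at R1, 1 higher and 4 lower calls became 0 higher with median centring, 2 higher and 7 lower with the brighter probe sets, 0 higher and 2 lower with main probe sets only, and 16 higher and 19 lower by the unadjusted t-test (1 and 4 after Benjamini-Hochberg). The unadjusted t-test also gave 12 higher and 5 lower at H3, 2 at H1 and 52 over R3 to R24, all 0 after Benjamini-Hochberg. The 11 calls in the mean over regions became 20 with all arrays in 1 fit with a random block, and the 14 probe sets differing between sham regions became 5 among main probe sets. The shares of all probe sets under these alternatives are not given here, so the counts are not read as a response of the members. The cause of these shifts was not tested.

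With 1 array or 1 whole replicate number left out, Ddit4 was called in 4 to 7 regions at H3, 0 to 6 at R1 and 0 to 5 at H1, and was lower at R1 than at H3 in 0 to 4. For the other members the counts ran from 0 to 1 higher at H3, 0 to 1 higher and 0 to 6 lower at R1. The time course calls ran from 4 to 16, those of the mean over regions from 2 to 13 and those of sham regions from 11 to 12. The adjusted p of the difference between regions for Ddit4 ran from 0.591 to 0.997 at R1. At H3 Ddit4 stayed at 7 without any 1 array, and counts under 7 came only with a whole replicate number left out, which leaves 2 arrays a group.

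With the replicate number as a block Ddit4 was called in 7 regions at H3, 5 at R1 and 5 at H1, and R1 was below H3 in 3. The other members had 1 higher and 5 lower calls at R1, the time course 15 and the mean over regions 12. Between the time points of a region, samples of 1 number correlated between -0.22 and 0.43 (mean 0.13). Between the regions of a time point they correlated between -0.23 and 0.37 (mean 0.076). Both means were low but positive, which does not settle whether a number pairs samples. Without a replicate block the adjusted p of Ddit4 between regions was 0.916 at R1, and 14 probe sets differed between sham regions.

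The call of Ddit4 at H1 in the thalamus was lost with a pseudocount of 1 (adjusted p = 0.0542), with median centring (0.0922) and in the t-test after Benjamini-Hochberg (0.0624). With a pseudocount of 1 and with centring, the mean over regions lost Ddit4 at R6 (0.105 and 0.0674) and Sesn1 at R3 (0.0702 and 0.119). Centring also lost Ddit4 at R1 in the hippocampus (0.0592), Ddit4l in the cortex (0.0528) and Sesn1 in the thalamus (0.058). Dim probe sets of Sesn2, Tsc1 and Deptor limit what could be seen of these genes.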
